A study of Homo sapiens with 8 samples.

Results

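Human HCT116 cells, a colorectal cancer line, were compared with and without a degrader aimed at a polyadenylation factor. Followed here were the genes of the sliding clamp PCNA, its loader and the enzymes that finish lagging-strand DNA. There were 10 of them among the 78932 gene identifiers of the deposited tables: PCNA, the replication factor C genes RFC1, RFC2, RFC3, RFC4 and RFC5, the flap nuclease FEN1, the ligase LIG1, and POLD1 and POLE, which encode the catalytic subunits of DNA polymerases delta and epsilon. They were chosen by function, with the comparison of the groups described here already known, and PCNA was singled out because its RNA had not fallen. The values of that comparison are therefore given for these genes as a description, with standard errors and intervals but without p-values.

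All 8 libraries came from cells with a dTAG on NUDT21, the small subunit of cleavage factor Im, which binds UGUA motifs in nascent RNA and steers the choice of poly(A) site. In 4 libraries the cells had received DMSO and JTE-607, and in the other 4 dTAGV1 and JTE-607. dTAGV1 is a small molecule that recruits an E3 ligase to dTAG-carrying proteins so that they are degraded, and JTE-607 inhibits CPSF73, the nuclease of the cleavage complex. Both groups thus carried the tag and the nuclease inhibitor. The comparison asked which RNAs differed when a degrader aimed at NUDT21 protein was added on top of that inhibition. No library came from untagged cells given dTAGV1, so effects of the compound itself and of NUDT21 loss cannot be told apart. Doses, times and whether the tagged line was a single clone are not given in the sources used here.

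PCNA forms a ring that encircles DNA and tethers polymerases, nucleases and ligases to it. The replication factor C complex, made of the large subunit RFC1 and the small subunits RFC2 to RFC5, opens the ring with ATP and places it at primer ends. On the lagging strand each Okazaki fragment starts from an RNA-DNA primer, is extended by DNA polymerase delta, has its displaced flap cut by FEN1 and is sealed by LIG1, all while bound to PCNA, whereas DNA polymerase epsilon synthesizes most of the leading strand. Many of these genes are known targets of E2F transcription factors in cycling cells.

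The promoters of 4 of the genes held an 8-base E2F motif and are shown here. PCNA and RFC3 carried the same letters close to the same position, and LIG1 carried those letters on the other strand. The part of these motifs in the RNA values below was not tested. The motif was searched as TTTCCCGC, TTTGGCGC, TTTCGCGC and TTTGCCGC on both strands, and the CCAAT box as CCAAT on both strands, in RefSeq windows of 300 bases on GRCh38.p14. The windows below are the 160 bases before the annotated start, 5′ to 3′ on the strand of the gene, with both motifs in capitals.
PCNA, chr20:5126623-5126782, minus strand: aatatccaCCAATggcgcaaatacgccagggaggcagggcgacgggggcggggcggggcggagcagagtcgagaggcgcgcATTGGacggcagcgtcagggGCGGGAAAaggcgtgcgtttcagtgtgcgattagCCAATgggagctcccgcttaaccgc
RFC3, chr13:33817989-33818148, plus strand: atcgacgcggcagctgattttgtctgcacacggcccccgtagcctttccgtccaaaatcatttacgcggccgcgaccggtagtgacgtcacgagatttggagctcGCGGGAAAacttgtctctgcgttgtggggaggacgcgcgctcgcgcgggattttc
LIG1, chr19:48170345-48170504, minus strand: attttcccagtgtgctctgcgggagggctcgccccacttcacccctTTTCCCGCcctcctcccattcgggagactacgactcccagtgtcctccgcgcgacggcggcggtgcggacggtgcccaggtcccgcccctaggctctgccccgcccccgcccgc
POLE, chr12:132687343-132687502, minus strand: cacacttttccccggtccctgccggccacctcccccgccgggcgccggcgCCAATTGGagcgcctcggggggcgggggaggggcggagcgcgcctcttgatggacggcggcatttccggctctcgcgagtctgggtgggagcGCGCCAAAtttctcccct

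The E2F letters began 59 bases before the start in PCNA, 55 in RFC3, 114 in LIG1 and 18 in POLE. They were present in 3.31% of the 35116 RefSeq promoter windows, and in 4 of the 12 windows of these 10 genes, since PCNA and POLD1 each have a second start. CCAAT boxes were in 34.6% of all windows. PCNA had 3 of them in the window shown, and in POLE a pair on opposite strands overlapped as a palindrome. The cyclic AMP response element TGACGTCA, searched on both strands, was in 1.85% of all windows and in those of RFC1 and RFC3. A match of letters is a description and shows no binding.

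The libraries held 3447842 to 4291256 reads counted to genes on the sense strand. Of uniquely mapped reads, 30.1% to 33.7% with DMSO and 35.9% to 37.4% with dTAGV1 matched no annotated exon on the sense strand. These ranges do not overlap, and the part of this difference in the values below was not tested. NUDT21 itself had 104 to 139 counts with DMSO and 15 to 43 with dTAGV1, giving a log2 fold change of -1.95 (SE 0.18) (Benjamini-Hochberg adjusted p = 1.36e-09 by edgeR's quasi-likelihood test). The protein, which dTAGV1 acts on, was not measured in these libraries. All 6 colorectal epithelial markers examined summed to 1580 to 1830 CPM (counts scaled to library size by TMM and to 1000000) with DMSO and 1250 to 1350 CPM with dTAGV1. The 9 markers of leukocytes, fibroblasts and endothelium were at 2.67 CPM or less in every library except COL1A1, at 11.2 to 19.9 CPM. Nothing in the labels says that replicates came from separate cultures, so errors and p-values measure the spread between these libraries only.

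PCNA was the only one of the 10 genes whose RNA overlapped between the groups, where 50.9% of all 12618 tested genes did not overlap. PCNA (ENSG00000132646; GRCh38 chromosome 20, 5114953 to 5126626, minus strand, protein-coding) had 147, 182, 152 and 160 CPM across DMSO replicates 1 to 4. With dTAGV1 it had 139, 190, 153 and 181 CPM. The ranges overlapped almost completely, and the highest and the lowest of all 8 values both came from dTAGV1 libraries, replicates 2 and 1. Means were 160 ± 15.6 and 166 ± 23.7 CPM (SD, n = 4 each), giving a log2 fold change of 0.05 (SE 0.09) and a 95% interval from -0.15 to 0.24. No direction is given, because the sign turned with library-size scaling, at -0.0292, and when single libraries were left out.

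PCNA exons were not shared with the genes annotated within its span, its 2 coding transcripts end at a single annotated site, and opposite-strand counts totalled 0 with DMSO and 1 with dTAGV1. The pseudogenes PCNAP1, PCNAP3 and PCNAP4 had 0 counts in all libraries, although a read that fits both PCNA and a copy would have been left uncounted. The neighbours on either side moved in opposite directions. TMEM230, a membrane protein gene that starts 1850 bases beyond the PCNA 3′ end on the same strand, rose from 61.3 ± 1.83 to 97.3 ± 8.83 CPM (SD, n = 4 each), giving a log2 fold change of 0.67 (edgeR, Benjamini-Hochberg adjusted p = 6.94e-07). CDS2, a phospholipid synthesis gene that starts 160 bases from the PCNA start on the opposite strand, fell from 47.8 ± 3.41 to 36.8 ± 3.87 CPM, giving a log2 fold change of -0.37 (edgeR, Benjamini-Hochberg adjusted p = 0.00519).

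**Figure D1:**
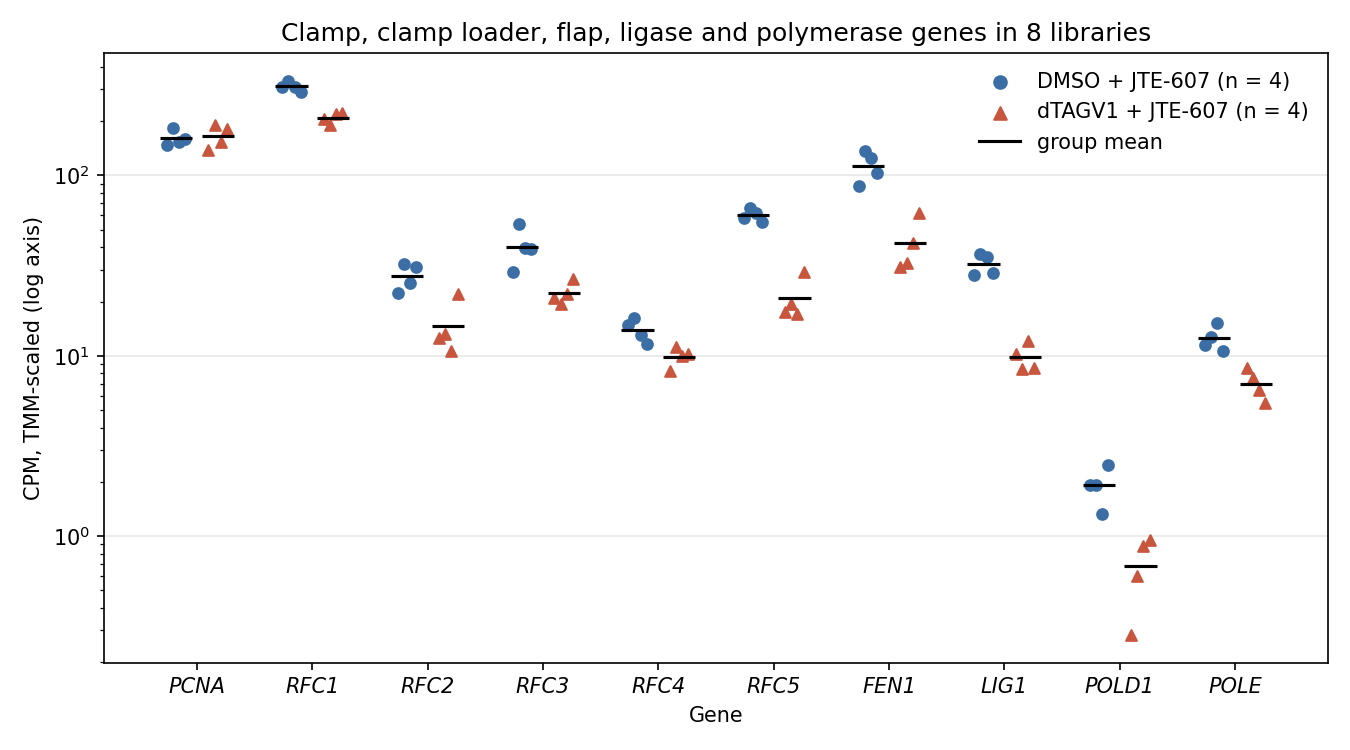
Expression of the 10 genes in each library, in TMM-scaled CPM on a log axis; circles are DMSO and triangles dTAGV1 libraries, both with JTE-607, and lines are group means (n = 4 each). PCNA overlaps between the groups, whereas each dTAGV1 library lies below all DMSO libraries for the other 9 genes.

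The clamp loader genes were all lower with dTAGV1, by unequal amounts. RFC1 (ENSG00000035928; chromosome 4, 39287456 to 39366375, minus strand) encodes the large subunit and had the highest CPM of the 10 genes. It had 311, 335, 311 and 289 CPM across DMSO replicates 1 to 4 and 206, 190, 219 and 223 CPM across dTAGV1 replicates 1 to 4. The groups were well apart and tight, with means of 311 ± 19.0 and 209 ± 14.8 CPM (SD, n = 4 each) and a log2 fold change of -0.57 (SE 0.07.) In bulk libraries, fewer cells that express a gene and less of its RNA per cell cannot be told apart, and this holds for every value here.

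RFC5 (ENSG00000111445; chromosome 12, 118013588 to 118033130, plus strand), a small subunit, had the largest difference within the loader. Its values were 57.9, 66.1, 62.2 and 55.4 CPM across DMSO replicates 1 to 4 and 17.6, 19.3, 17.1 and 29.3 CPM across dTAGV1 replicates 1 to 4. All dTAGV1 values lay far below the DMSO range, with replicate 4 the highest of them. The log2 fold change was -1.52 (SE 0.14), or 0.350-fold. Opposite-strand counts at RFC5 were 104 to 134 with DMSO and 95 to 130 with dTAGV1. WSB2, which overlaps the 3′ part of RFC5 on the other strand, had a log2 fold change of 0.63.

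RFC2 and RFC3, both small subunits, lay between these. RFC2 (ENSG00000049541; chromosome 7, 74231499 to 74254458, minus strand) had 22.4, 32.3, 25.3 and 30.9 CPM with DMSO and 12.5, 13.3, 10.6 and 22.0 CPM with dTAGV1, for replicates 1 to 4. The groups nearly met, with dTAGV1 replicate 4 just below DMSO replicate 1. Its log2 fold change was -0.91 (SE 0.19), and -1.21 without dTAGV1 replicate 4. RFC3 (ENSG00000133119; chromosome 13, 33818049 to 33966558, plus strand) had 28.97, 53.5, 39.8 and 39.1 CPM with DMSO and 21.0, 19.3, 22.1 and 26.7 CPM with dTAGV1. Its DMSO values were the more scattered, and the log2 fold change was -0.85 (SE 0.16.)

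RFC4 (ENSG00000163918; chromosome 3, 186789880 to 186807058, minus strand) had the lowest mean CPM of the small subunits and differed least. It had 14.8, 16.2, 13.1 and 11.6 CPM across DMSO replicates 1 to 4 and 8.22, 11.2, 10.02 and 10.2 CPM across dTAGV1 replicates 1 to 4. The groups were separated by less than 1 CPM, from 47 to 67 counts per DMSO library and 29 to 43 per dTAGV1 library. The log2 fold change was -0.49 (SE 0.18) and a 95% interval from -0.87 to -0.11. It moved to -0.41 without DMSO replicate 2 and to -0.42 without dTAGV1 replicate 1, and RFC4 no longer passed the threshold in either fit.

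RFC4 also had more reads on the opposite strand than on its own. These numbered 210 to 265 per DMSO library and 206 to 325 per dTAGV1 library. EIF4A2, a translation initiation factor gene, ends within the last exon of RFC4 on the other strand, with 21 exonic bases in common, and rose by 0.55 on the log2 scale (edgeR, Benjamini-Hochberg adjusted p = 3.42e-07). With counts taken irrespective of strand the RFC4 fold change was -0.27 on the log2 scale, and it no longer passed the threshold. The part of EIF4A2 reads in the sense counts of RFC4 was not tested.

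Both enzymes that mature Okazaki fragments were strongly lower. FEN1 (ENSG00000168496; chromosome 11, 61792637 to 61797244, plus strand), the structure-specific nuclease that removes flaps, had 86.9, 137, 126 and 104 CPM across DMSO replicates 1 to 4. It had 31.2, 32.6, 42.4 and 61.7 CPM across dTAGV1 replicates 1 to 4. The highest dTAGV1 library, replicate 4, remained below the lowest DMSO library, and both groups were widely spread. FEN1 fell from 113 ± 22.5 to 42.0 ± 14.1 CPM (SD, n = 4 each), giving a log2 fold change of -1.42 whose standard error of 0.24 was the largest among the tested genes of the 10. Without dTAGV1 replicate 4 it was -1.70.

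FEN1 is embedded between other genes. FADS2, a fatty acid desaturase gene, shares 49 exonic bases with FEN1 on the same strand, or 1.98% of FEN1 exon sequence and none within its last 300 bases. FADS2 itself had a log2 fold change of -1.66 (edgeR, Benjamini-Hochberg adjusted p = 1.40e-06). TMEM258, which overlaps the start of FEN1 on the other strand, had a log2 fold change of 0.50, and opposite-strand counts at FEN1 were 0 to 2 per library.

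LIG1 (ENSG00000105486; chromosome 19, 48115445 to 48170603, minus strand), the ligase that seals the fragments, differed most of all. It had 28.1, 36.7, 35.5 and 28.9 CPM across DMSO replicates 1 to 4 and 10.2, 8.46, 12.1 and 8.51 CPM across dTAGV1 replicates 1 to 4. The groups were far apart, with no single library close to the other group. LIG1 fell from 32.3 ± 4.39 to 9.81 ± 1.71 CPM (SD, n = 4 each), giving a log2 fold change of -1.72 (SE 0.16), or 0.303-fold.

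The catalytic polymerase genes had the lowest CPM of the 10. POLE (ENSG00000177084; chromosome 12, 132623753 to 132687365, minus strand) had 11.5, 12.8, 15.2 and 10.6 CPM across DMSO replicates 1 to 4 and 8.50, 7.55, 6.48 and 5.44 CPM across dTAGV1 replicates 1 to 4. Its groups were separate but near each other, and its log2 fold change was -0.85 (SE 0.21.) POLD1 (ENSG00000062822; chromosome 19, 50384204 to 50418016, plus strand) had counts of 7, 8, 5 and 10 with DMSO and 1, 2, 3 and 4 with dTAGV1. It failed the filter on low counts and was not tested with the others, although no dTAGV1 count reached the lowest DMSO count. The DMSO libraries averaged 1.91 ± 0.465 CPM and the dTAGV1 libraries 0.679 ± 0.303 CPM (SD, n = 4 each). AC020909.1 shares 426 exonic bases with POLD1 on the same strand, or 8.64% of POLD1 exon sequence. None lie within the last 300 bases before the annotated POLD1 ends. Reads in the overlap were counted to neither gene, and their number is not known.

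Counted together, 8 of the 9 tested genes were lower with dTAGV1, 0 were higher and PCNA was not called (Benjamini-Hochberg adjusted p under 0.05, edgeR's quasi-likelihood test). No gene of the 9 was higher at an unadjusted p under 0.05, by DESeq2 or by limma-voom. Among all 12618 tested genes, 28.5% were lower by the same rule and 29.4% were higher. The groups did not overlap for those 8 genes, which was so for 50.9% of all tested genes in either direction and for 25.1% in the lower direction. Their median log2 fold change was -0.85 over the 9 tested genes, and 0.01 over all tested genes. Since the 10 genes were chosen with these values known, nothing is read from these shares.

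**Figure D2:**
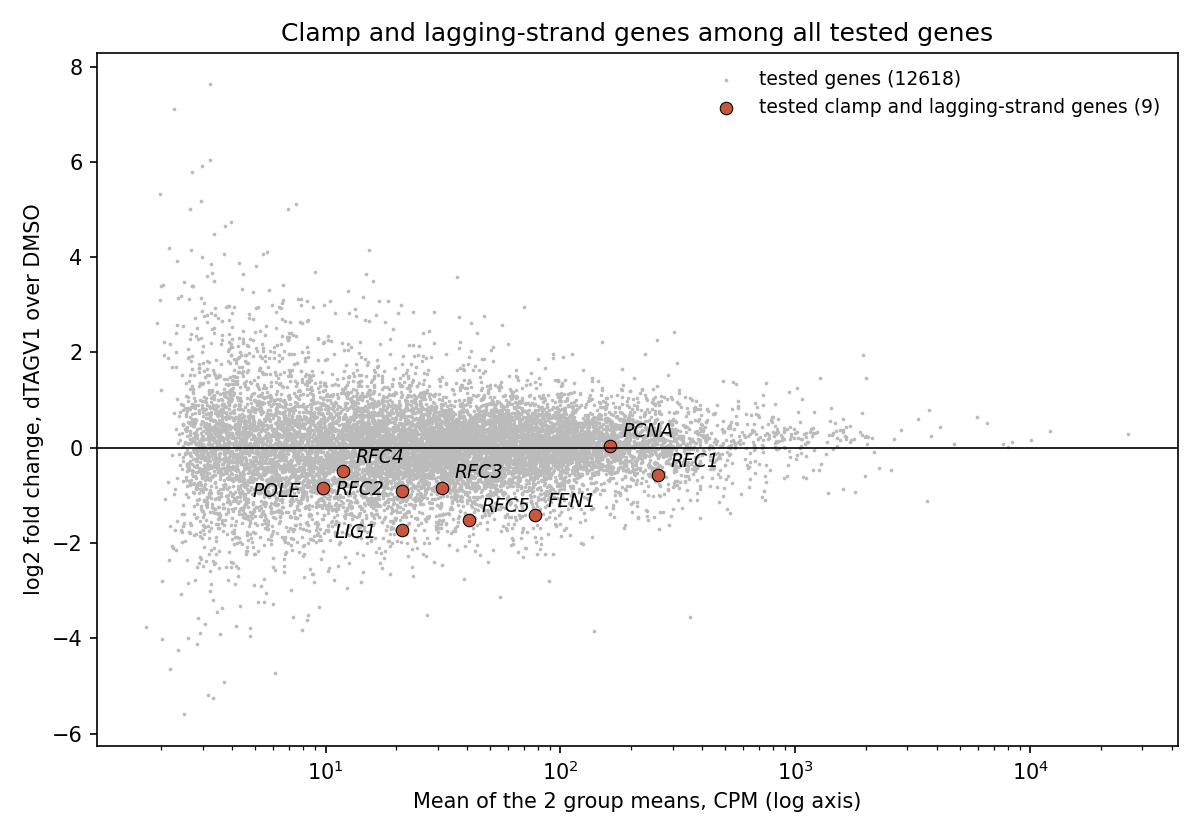
Log2 fold change (dTAGV1 over DMSO) against mean CPM on a log axis, for all 12618 tested genes in grey and the 9 tested clamp and lagging-strand genes in red. PCNA lies at 0.05, and the other 8 lie from -0.49 (RFC4) to -1.72 (LIG1).

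The counts come from reads near transcript 3′ ends, about 1 per molecule, so levels of different genes were set side by side without a correction for length. In the DMSO libraries the order was RFC1 at 311 CPM, PCNA at 160, FEN1 at 113, RFC5 at 60.4, RFC3 at 40.3, LIG1 at 32.3, RFC2 at 27.7, RFC4 at 13.9, POLE at 12.5 and POLD1 at 1.91 CPM. The ranges over libraries overlapped between RFC3 and LIG1, between LIG1 and RFC2, and between RFC4 and POLE, so that these neighbours did not differ beyond their spread. All other neighbours were separate. The clamp loader subunits thus differed widely in these RNA counts, although transcripts whose ends lie outside the annotation would be missed. Reads that fit several places, such as PCNA and a copy, or that lie where genes overlap were also left uncounted. The order is therefore one of counted reads.

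With dTAGV1 the order changed below the top ranks. RFC1 remained first at 209 CPM and PCNA second at 166 CPM, but their ranges now nearly met, with 190.0 CPM in the lowest RFC1 library and 189.7 CPM in the highest PCNA library. FEN1 followed at 42.0 CPM. RFC3, RFC5, RFC2, RFC4, LIG1 and POLE came next from 22.3 to 6.99 CPM, each overlapping the next.

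Ratios within a library do not depend on scaling between libraries. They restate the separation of PCNA from its partners, since PCNA was singled out because it had not fallen. The ratio of PCNA to RFC1 was 0.472, 0.544, 0.490 and 0.555 across DMSO replicates 1 to 4 and 0.675, 0.998, 0.698 and 0.811 across dTAGV1 replicates 1 to 4. PCNA to FEN1 averaged 1.44 ± 0.214 in the DMSO libraries and 4.20 ± 1.25 in the dTAGV1 libraries (SD, n = 4 each). PCNA to LIG1 was 5.00 ± 0.528 and 17.5 ± 5.06. No ratio of the 3 overlapped between the groups, and the share over all gene pairs was not computed. PCNA made up 19.5% to 21.9% of the summed CPM of the 10 genes with DMSO and 30.6% to 38.6% with dTAGV1, while the other 9 summed to 614 ± 59.7 and 336 ± 37.7 CPM.

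The loader subunits also changed relative to each other. RFC5 to RFC4 averaged 4.38 ± 0.440 in the DMSO libraries and 2.11 ± 0.550 in the dTAGV1 libraries (SD, n = 4 each), without overlap. RFC1 to the sum of RFC2 to RFC5 was 2.21 ± 0.219 and 3.17 ± 0.506, and these ranges were separated by a narrow gap, from 2.50 to 2.53. FEN1 to LIG1 was 3.09 to 3.74 with DMSO and 3.06 to 7.25 with dTAGV1, which overlapped. All these ratios describe genes that were chosen with the comparison known.

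**Figure D3:**
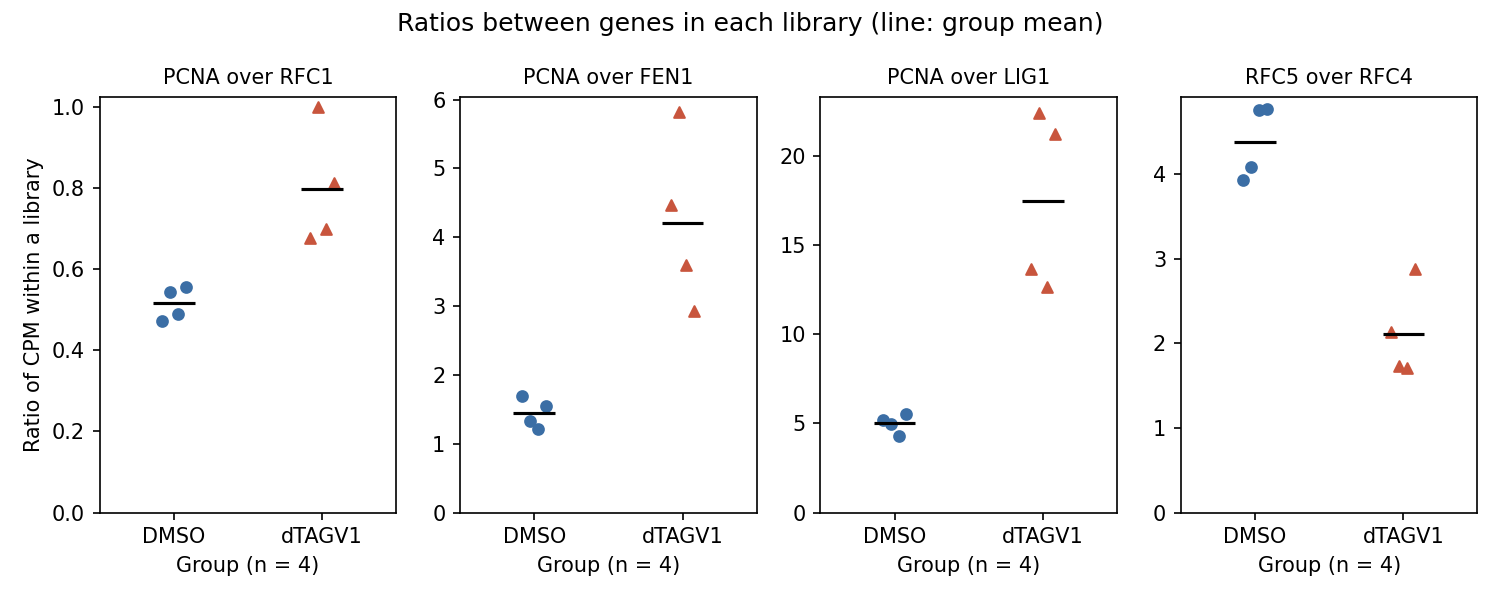
Ratios of CPM within each library for PCNA to RFC1, PCNA to FEN1, PCNA to LIG1 and RFC5 to RFC4; circles are DMSO and triangles dTAGV1 libraries, lines are group means (n = 4 each), and each axis starts at 0. The first 3 ratios are higher and the last is lower in every dTAGV1 library.

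Individual libraries stood at the same end for many of the genes. DMSO replicate 2 was the highest DMSO library for 8 of the 10 genes, PCNA included, and POLD1 and POLE were the exceptions. Among dTAGV1 libraries, replicate 4 was the highest for 6 genes, RFC1, RFC2, RFC3, RFC5, FEN1 and POLD1. That library was the deepest, at 4291256 counts. It also had the most NUDT21 counts of its group, at 43 against 34, 29 and 15 in replicates 1 to 3. These counts are not scaled for depth, whereas the genes were ranked by CPM. Unmapped reads made up 20.4% of reads in that library, against 30.3%, 29.9% and 24.9% in dTAGV1 replicates 1 to 3. The part of depth, of unmapped reads or of residual NUDT21 RNA in this was not tested.

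The genes most like PCNA across the libraries were ranked by Pearson's r of log2 CPM over 8 libraries and 9247 other genes that averaged 10 CPM or more. The nearest were PRMT5, an arginine methyltransferase gene, at 0.906, ZMAT3, a p53-responsive zinc finger gene, at 0.896, and MDH1, a malate dehydrogenase gene, at 0.894. Their own log2 fold changes were 0.02, 0.02 and -0.00093. Values near 0 largely follow from the ranking, since it pooled both groups and PCNA itself had 0.05. The r values are the 3 highest of 9247, over only 8 libraries that share depth between genes. They are given as a description with no test.

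Annotated transcript ends differed among the 10 genes in the motif that NUDT21 binds. Of one principal coding transcript per gene in GENCODE 29, 5 held TGTA in the last 100 bases, namely those of RFC1, RFC3, RFC4, RFC5 and POLE, against 39.4% of 83119 coding transcripts. PCNA, RFC2, FEN1, LIG1 and POLD1 held none. AATAAA or ATTAAA stood in the last 50 bases of 7, all but RFC2, RFC5 and POLE, against 44.2%. The background took every coding transcript of at least 100 bases and not one principal transcript per gene. The shares therefore come from unlike sets. The tested genes with TGTA had log2 fold changes of -0.57 (RFC1), -0.85 (RFC3), -0.49 (RFC4), -1.52 (RFC5) and -0.85 (POLE). Those without it had 0.05 (PCNA), -0.91 (RFC2), -1.42 (FEN1) and -1.72 (LIG1). The part of the motif in these values was not tested. Which ends were used in these cells is not shown by counts per gene.

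The other genes of this machinery, 47 in 4 lists drawn up by function, put PCNA in context. Of the 44 tested, 29 fell, 9 rose and 6 did not pass (edgeR, Benjamini-Hochberg adjusted p under 0.05), with a median log2 fold change of -0.59. Over all 12618 tested genes, 28.5% fell, 29.4% rose and the median was 0.01. Nothing particular to a list is read from its counts below, since rises were about as common over all genes as in 2 of the 4 lists.

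Of the other polymerase subunits, 7 of 9 tested fell and 0 rose, against 28.5% and 29.4% of all tested genes. None rose at an unadjusted p under 0.05, by DESeq2 or by limma-voom either. Their median log2 fold change was -0.79. PRIM1, the catalytic primase subunit that makes the RNA part of each primer, fell from 45.3 ± 8.87 to 15.6 ± 4.95 CPM (SD, n = 4 each), giving a log2 fold change of -1.51 (edgeR, Benjamini-Hochberg adjusted p = 1.02e-06). POLA2, the second subunit of polymerase alpha, fell by 1.20 on the log2 scale (edgeR, Benjamini-Hochberg adjusted p = 3.41e-06). POLD2, a subunit of polymerase delta, fell by only 0.31 (edgeR, Benjamini-Hochberg adjusted p = 0.0307), and its call was lost when DMSO 2, DMSO 3, dTAGV1 3 or dTAGV1 4 was left out. POLE4, a small subunit of polymerase epsilon, had a log2 fold change of -0.13 with a 95% interval from -0.45 to 0.20. PRIM1 overlaps NACA on the same strand, and reads in the overlap were counted to neither.

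Of 7 tested genes of alternative clamp loaders and the checkpoint clamp, 4 fell and 2 rose, with a median of -0.53. The share that rose was close to the 29.4% over all tested genes, of which 28.5% fell. DSCC1 and CHTF18, which form a PCNA loader for sister chromatid cohesion, fell, with log2 fold changes of -1.40 and -0.87 (edgeR, Benjamini-Hochberg adjusted p = 5.44e-06 and 0.00578). HUS1, a subunit of the 9-1-1 clamp that signals DNA damage, rose from 30.4 ± 4.05 to 68.1 ± 6.08 CPM (SD, n = 4 each), giving a log2 fold change of 1.17 (edgeR, Benjamini-Hochberg adjusted p = 2.64e-09). RAD9A, another 9-1-1 subunit, had a log2 fold change of 0.60 (edgeR, Benjamini-Hochberg adjusted p = 0.0334). That call was lost in 7 alternatives, including DESeq2 and the fits that left out DMSO 3, DMSO 4, dTAGV1 1 or dTAGV1 2, and RAD9A overlaps several genes. RAD17, the loader of that clamp, had one of 0.22 with an interval from -0.17 to 0.62. CHTF8 had 0 counts in all libraries, and whether reads from it were left uncounted was not tested.

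**Figure D4:**
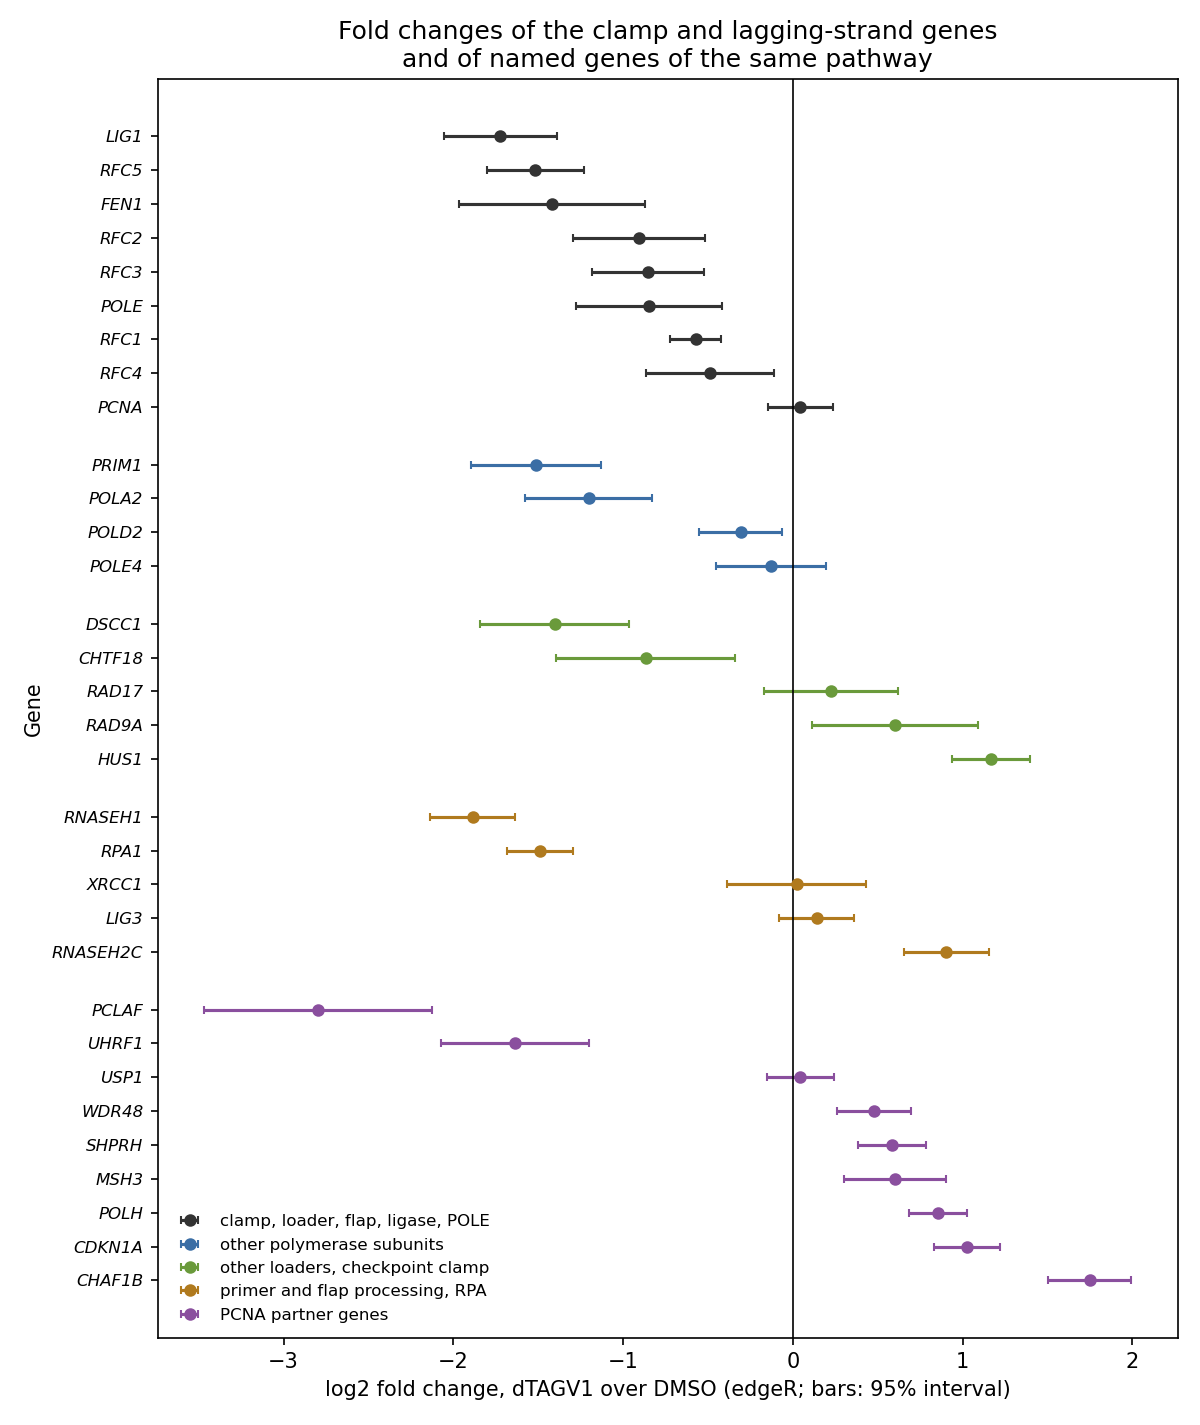
Log2 fold changes (dTAGV1 over DMSO, edgeR) with 95% intervals for the 9 tested clamp and lagging-strand genes and 23 named genes of the 4 pathway lists, coloured by list. PCNA, XRCC1, LIG3, USP1, POLE4 and RAD17 have intervals that include 0, and CHAF1B, HUS1 and CDKN1A lie furthest to the right.

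Among genes of primer removal, flap cutting and single-stranded DNA binding, 7 of 10 tested fell and 1 rose, against 28.5% and 29.4% of all tested genes, with a median of -0.63. RNASEH1, which degrades RNA in RNA-DNA hybrids, fell from 98.4 ± 10.3 to 26.4 ± 5.50 CPM (SD, n = 4 each), giving a log2 fold change of -1.89 (edgeR, Benjamini-Hochberg adjusted p = 3.51e-12). RPA1, the large subunit of the single-strand binding protein RPA, fell from 128 ± 6.03 to 45.3 ± 5.61 CPM, giving a log2 fold change of -1.49 (edgeR, Benjamini-Hochberg adjusted p = 1.82e-12). RNASEH2C, a subunit of the other RNase H, rose by 0.90 on the log2 scale (edgeR, Benjamini-Hochberg adjusted p = 6.54e-07). LIG3 and XRCC1, partners in a ligase of single-strand break repair, had log2 fold changes of 0.14 and 0.02, with intervals from -0.08 to 0.36 and from -0.39 to 0.43.

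Of 18 PCNA partner genes, 11 fell and 6 rose, with a median of -0.58. The share that rose was near the 29.4% over all tested genes, of which 28.5% fell. PCLAF, a small PCNA-binding protein, had the largest decrease of the 4 lists, from 156 ± 28.7 to 22.2 ± 9.42 CPM (SD, n = 4 each), giving a log2 fold change of -2.80 (edgeR, Benjamini-Hochberg adjusted p = 7.46e-05). UHRF1, a factor of maintenance DNA methylation, fell by 1.63 on the log2 scale (edgeR, Benjamini-Hochberg adjusted p = 4.06e-07). CDKN1A, which encodes the CDK inhibitor p21 that binds PCNA, rose from 702 ± 106 to 1430.1 ± 130 CPM, giving a log2 fold change of 1.03 (edgeR, Benjamini-Hochberg adjusted p = 1.42e-08). POLH, a translesion polymerase recruited by PCNA, rose by 0.85 (edgeR, Benjamini-Hochberg adjusted p = 3.43e-09).

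The largest increase of the 4 lists was that of CHAF1B, a subunit of the chromatin assembly factor that PCNA brings to new DNA. Its level climbed from 18.6 ± 0.972 to 62.6 ± 7.42 CPM (SD, n = 4 each), giving a log2 fold change of 1.75 (edgeR, Benjamini-Hochberg adjusted p = 6.24e-12). CHAF1B overlaps MORC3 on the same strand, and MORC3 rose as well, by 0.97 on the log2 scale (edgeR, Benjamini-Hochberg adjusted p = 3.28e-09). MSH3 of mismatch repair, the ubiquitin ligase gene SHPRH and WDR48 rose, with log2 fold changes of 0.60, 0.59 and 0.48 (edgeR, Benjamini-Hochberg adjusted p = 0.00109, 1.30e-05 and 0.000406). With counts taken irrespective of strand the log2 fold change of WDR48 was 0.81. WDR48 is the cofactor of USP1, the deubiquitinase of PCNA, and USP1 had a log2 fold change of 0.04 with an interval from -0.15 to 0.24.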

How the data were processed

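Sequencing was 3′ mRNA-seq with the Lexogen QuantSeq FWD V2 kit on poly(A) RNA of 8 HCT116 libraries, per the labels' protocols. The submitters' processing notes name FastQC, fastp, STAR, HTSeq and DESeq2 with the build GRCh38, without versions or settings. The deposited files hold raw counts per Ensembl gene from STAR, unstranded and for each strand, for 78932 identifiers. The sense-strand counts were used, since they exceeded those of the opposite strand 8.28 to 8.48 times in every library. They summed to 3447842 to 4291256 per library, and 56.7% to 62.8% of reads fell in the rows that name no gene, which stayed out of library sizes and tests. Whether PCR duplicates were removed is not given in the sources used here.

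Symbols matched 61481 identifiers. Positions and overlaps came from GENCODE 29 on GRCh38, which holds 57356 of the 78932 identifiers, and promoters from RefSeq. Overlaps with genes outside GENCODE 29 were not examined. The 10 genes, the 4 lists and the tests were chosen with earlier results of these data known. Genes passing filterByExpr (12618) were fitted with edgeR 4.0.16 in R 4.3.3 (TMM, robust quasi-likelihood, 4 libraries against 4), with Benjamini-Hochberg adjustment over all of them and a threshold of 0.05. CPM are these counts scaled to a TMM-adjusted library of 1000000. Alternatives were RLE or library-size scaling, no filter, a mean of at least 100 counts, unstranded counts, a replicate block, DESeq2 1.42.0, limma-voom (limma 3.58.1), a non-robust fit and leaving out each library. Named genes were the 10, NUDT21, in each list the 2 highest and 2 lowest fold changes with all at or above 0, genes overlapping one of the 10 or next to PCNA, and the 3 most like PCNA; any other gene was picked with its values in view. The fit was tested on simulated counts.

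No 2 libraries agreed within sampling noise: over the 12 pairs within groups, chi-square per degree of freedom was 1.89 to 5.65.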

Additional observations from a re-analysis of the deposited data

Results flagged for a closer look

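In each group of 4 libraries, the gap of the highest or lowest library to its nearest neighbour was set against the whole range of the group, and a share above Dixon's critical value was noted. Of 86 groups examined, 2 met this, where chance alone gives about 1 in 20.

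PRIM1 stood out in dTAGV1 replicate 4, at 22.9 CPM against 13.9, 12.1 and 13.6 CPM in dTAGV1 replicates 1 to 3. The same library was the highest of its group for 6 of the 10 clamp and lagging-strand genes.

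The share of PCNA in the summed CPM of the 10 genes stood out in dTAGV1 replicate 2, at 38.6% against 30.6%, 31.0% and 31.8% in dTAGV1 replicates 1, 3 and 4. That library had the highest PCNA value of its group and the lowest sum of the other 9 genes. The cause was not tested for either library.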

How the results depend on the processing

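Over 17 alternatives, the number of genes called among all tested ranged from 4120 to 8073 against 7302, and from 6861 to 7232 when 1 library was left out. A minimum mean of 100 counts left 4120 called genes and 5 of the 10 clamp and lagging-strand genes, 4 of them lower. There the alternative loader and checkpoint clamp list had a median log2 fold change of 0.17, against -0.53, with 1 gene lower and 1 higher, and the primer and flap list had 4 lower, because fewer genes were tested. That loader list had 1 gene higher also under library-size scaling, without the filter and by DESeq2, and 1 to 2 when 1 library was left out, the call lost being that of RAD9A. The number of the 10 genes that were lower was 7 to 8 with 1 library left out. Without the filter POLD1 had a log2 fold change of -1.45. With unstranded counts RFC4 had one of -0.27 and WDR48 one of 0.81 against 0.48. The PCNA partner gene MSH6 had one of -0.09 there, against -1.10, and lost its call. The partner list then had 10 genes lower, against 11.

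PCNA had a log2 fold change of -0.0292 under library-size scaling and -0.04 to 0.11 with 1 library left out. The replicate block gave 7434 called genes, 8 of the 10 genes lower and 0.04 for PCNA. Same-numbered libraries had correlations of deviations from -0.0176 to 0.131, so the numbers were not taken to pair them. Low counts limit POLD1 most, at 30 counts over the DMSO and 10 over the dTAGV1 libraries.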

Other observations

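Subunits of some complexes in the 4 lists moved in opposite directions. These pairs were picked out after their values were seen and the contrast between subunits was not tested. Over all 12618 tested genes, 28.5% fell and 29.4% rose, and the share of opposite pairs in other complexes was not computed. CHAF1A, the large subunit of the chromatin assembly factor, fell from 72.9 ± 12.6 to 35.4 ± 4.33 CPM (SD, n = 4 each), with a log2 fold change of -1.04 (edgeR, Benjamini-Hochberg adjusted p = 9.08e-08). CHAF1B, which overlaps the rising MORC3 on the same strand, rose by 1.75. RNASEH2B fell by 0.73 (edgeR, Benjamini-Hochberg adjusted p = 0.000191), whereas RNASEH2C of the same enzyme rose by 0.90. RAD1 fell by 0.53 (edgeR, Benjamini-Hochberg adjusted p = 0.00465), whereas HUS1 of the same clamp rose by 1.17.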
